A study of Mus musculus with 4 samples.

Results

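MHC class II presentation and costimulation were examined through 10 genes chosen by their symbols: H2-Aa, H2-Ab1, H2-Eb1, H2-DMa, H2-DMb1, Cd74, Ciita, Cd80, Cd86 and Cd40. Each symbol named a single row among the 34745 genes counted, and all 10 passed the filter on low counts that left 12418 genes for testing. Total RNA of cultured mouse macrophages had been sequenced in 4 libraries, a pair labelled WT and a pair labelled KO, each numbered 1 and 2. According to the study's methods, the cells were bone marrow-derived macrophages (BMDMs), the controls came from mice with a floxed G3bp1 gene (G3bp1f/f), and the KO cells (genotype G3bp1mac-/-) came from floxed mice crossed to Lyz2-Cre. Lyz2 drives Cre in myeloid cells, so cells of other lineages keep the gene. The paper names DMEM with fetal bovine serum for its macrophage cell lines and gives no medium for the BMDMs. No stimulus is named for these libraries. The age of the animals behind each library, and whether the libraries of a genotype came from separate animals, are not given in the sources used here, so the p-values measure only the spread between these libraries, which may be technical. G3BP1 is the scaffold protein of stress granules (SGs), condensates of untranslated mRNA and protein.

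MHC class II molecules show peptides from engulfed proteins to CD4+ T cells. An alpha and a beta chain (H2-Aa with H2-Ab1 in the I-A molecule, H2-Eb1 as the beta chain of I-E) assemble with the invariant chain Cd74, which guides them to endosomes and holds the groove until cathepsins cut it away. The H2-DM heterodimer, made of H2-DMa and H2-DMb1, then exchanges the remaining fragment for antigenic peptide. Ciita is the transactivator that switches these genes on, mostly after interferon gamma. Cd80 and Cd86 deliver the second signal through CD28 on the T cell, and Cd40 receives the CD40 ligand of the T cell in return. Resting macrophages carry little class II compared with dendritic cells and B cells.

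Class II promoters share an X box, bound by the RFX complex, and a Y box, bound by NF-Y, at a fixed spacing, and Ciita acts through the proteins bound there. The promoter windows of RefSeq (GRCm38.p6, 250 bases before to 50 after the annotated start) held an entry for 5 of the 10 genes. They are shown for the 3 in which both boxes were found, since these genes are the ones whose levels are compared next. Capitals mark the X-box-like core TNGNAAC and the Y-box-like core TGATTGG. H2-Aa lies at chr17:34287774-34288073 (minus strand), H2-Eb1 at chr17:34305617-34305916 and H2-DMb1 at chr17:34152941-34153240 (both plus strand).
H2-Aa: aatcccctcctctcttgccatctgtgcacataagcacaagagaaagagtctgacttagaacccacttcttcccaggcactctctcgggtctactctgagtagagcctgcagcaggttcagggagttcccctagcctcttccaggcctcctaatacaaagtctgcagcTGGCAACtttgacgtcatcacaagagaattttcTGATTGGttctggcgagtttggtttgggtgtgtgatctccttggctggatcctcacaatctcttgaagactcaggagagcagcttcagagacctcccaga
H2-Eb1: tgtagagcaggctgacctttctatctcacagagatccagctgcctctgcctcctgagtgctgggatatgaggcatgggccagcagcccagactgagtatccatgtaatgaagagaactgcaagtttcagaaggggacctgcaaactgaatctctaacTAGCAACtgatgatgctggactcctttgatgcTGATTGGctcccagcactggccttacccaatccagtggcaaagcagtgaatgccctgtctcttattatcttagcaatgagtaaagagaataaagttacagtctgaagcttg
H2-DMb1: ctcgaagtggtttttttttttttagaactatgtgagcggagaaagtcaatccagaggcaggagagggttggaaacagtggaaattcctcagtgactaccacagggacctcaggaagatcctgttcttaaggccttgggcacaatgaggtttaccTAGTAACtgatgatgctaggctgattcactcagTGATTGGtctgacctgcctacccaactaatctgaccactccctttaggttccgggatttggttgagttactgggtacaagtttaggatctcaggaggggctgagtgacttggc

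The X core began 83 bases before the start of H2-Aa, 93 before that of H2-Eb1 and 96 before that of H2-DMb1. The Y core followed at 50, 61 and 63 bases before the start, with 26, 25 and 26 bases between the cores. On either strand, the X core was found in 35.2% and the Y core in 7.82% of the 32851 windows. Both in this order with 20 to 30 bases between them occurred in 24 windows (0.0731%). Besides these 3 genes, the window of H2-Ob, the beta chain of the H2-DM inhibitor H2-O, held the pair with 23 bases between the cores. The window of Cd80 and the 2 windows of H2-DMa did not hold this pair of letter strings, and those of H2-DMa lie upstream of the gene start in the deposited table. The letters were chosen after these promoters had been read, so the share describes the match and tests nothing.

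The 4 libraries held 16724241 to 19747909 gene counts, and a count of 0 left room for at most 0.152 to 0.188 CPM (counts after scaling every library to the same total), counting error only. The targeted gene G3bp1 (chromosome 11, 55469685 to 55504838) was counted 1691 times in WT 1 and 2875 times in WT 2, and 1307 times in KO 1 and 2296 times in KO 2. Its log2 fold change, KO over WT, was -0.61 (95% confidence interval -1.61 to 0.40, edgeR quasi-likelihood adjusted p = 0.904). It was -0.95 without WT 1, -0.19 without WT 2, -0.29 without KO 1 and -1.02 without KO 2. Within the numbers the log2 ratio of G3bp1 was steadier, at -0.57 for number 1 and -0.63 for number 2. The paper reports an efficient loss of G3BP1 in macrophages of the KO mice, from mRNA and protein measurements of BMDMs. A count summed over the gene cannot show a deleted exon, so the labels were not checked by it. The replicate number separated the libraries more than the genotype did. The first principal component (56.0% of the variance) parted number 1 from number 2, and the second (34.9%) parted WT from KO. The labels do not say what a number stands for, so values within each number are given beside the pooled ones. The 12 macrophage markers were all present at over 1 CPM in at least 1 library, and their summed level was 27659, 25528, 21859 and 25380 CPM in WT 1, WT 2, KO 1 and KO 2, most of it Lyz2. Of these markers, 4 had both KO libraries under both WT libraries, namely Cd68 and the complement genes C1qa, C1qb and C1qc (C1qb at 613 and 595 CPM for WT against 350 and 425 CPM for KO), and Itgam had them above. Over all genes tested, 16.9% had both KO libraries under both WT libraries and 20% had them above, and the counts of marker genes are to be read against these shares.

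The 10 genes spanned a wide range of levels. In FPKM, a scale that corrects for library total and gene length, the mean of the 4 libraries was highest for Cd74 at 92.8 FPKM and placed it above 95.9% of the genes tested. H2-Eb1 followed at 75.9 FPKM, but in WT the pair did not separate (109 ± 23.5 FPKM for Cd74, 103 ± 12 FPKM for H2-Eb1), and only in KO was each Cd74 value above each of H2-Eb1. Below them, H2-Aa and H2-Ab1 stood at 57.6 and 57.4 FPKM, a gap far smaller than their spread over libraries. H2-DMb1 was at 28.7 FPKM. The next 3, Cd40 at 9.10, H2-DMa at 8.24 and Cd80 at 8.02 FPKM, did not differ beyond their spread, and the Cd40 mean joins libraries that were very far apart. Cd86 was at 3.64 FPKM, and Ciita came last at 0.501 FPKM, above 15.3% of the genes tested. The chains of I-A stayed near parity, with an H2-Aa to H2-Ab1 ratio in FPKM that was 1.03 and 0.967 for WT, 1.06 and 1.00 for KO.

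**Figure D1:**
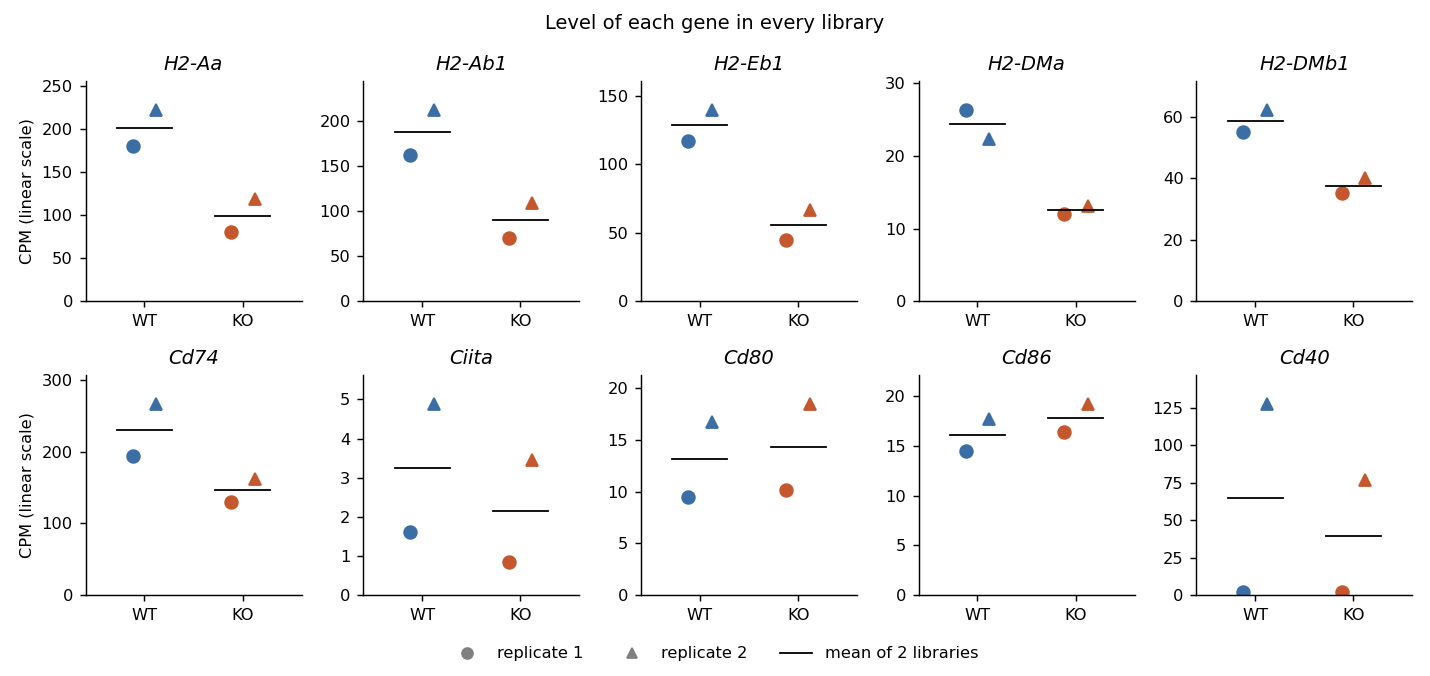
Level of each of the 10 genes in CPM (vertical axes, a separate linear scale per gene starting at 0) in the WT and KO libraries, with the replicate number marked and a bar for the mean of each genotype. The class II chains, H2-DMa, H2-DMb1 and Cd74 have both KO points under both WT points, whereas Cd40 and Ciita split by replicate number, with Cd40 at 32 and 44 counts in the libraries numbered 1 and at 2038 and 1511 in those numbered 2.

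All 3 chain genes had fewer counts in both KO libraries than in either WT library. H2-Eb1 (ENSMUSG00000060586, chromosome 17, 34305877 to 34316199, plus strand) was counted 1895 times in WT 1 and 2226 times in WT 2, against 836 times in KO 1 and 1318 times in KO 2. This corresponded to 128 ± 16.2 CPM for WT against 55.9 ± 15.6 CPM for KO (mean ± SD, n = 2 each), and the highest KO library, at 67.0 CPM, lay well under the lowest WT library, at 117 CPM. On the log2 scale the fitted estimate was -1.20 (SE 0.29, 95% confidence interval -1.94 to -0.45), and within the numbers the log2 ratio was -1.38 and -1.06. H2-Eb1 was under 0.05 before adjustment (edgeR quasi-likelihood unadjusted p = 0.009) and not after Benjamini-Hochberg adjustment over all genes (edgeR adjusted p = 0.372).

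H2-Aa (ENSMUSG00000036594, chromosome 17, 34282744 to 34287827, minus strand), the alpha chain of I-A, gave 2935 counts in WT 1, 3552 in WT 2, 1506 in KO 1 and 2333 in KO 2. WT averaged 202 ± 29.7 CPM and KO averaged 99.7 ± 26.7 CPM, with a log2 fold change of -1.02 (SE 0.29, 95% confidence interval -1.77 to -0.27; edgeR adjusted p = 0.494). H2-Ab1 (ENSMUSG00000073421, chromosome 17, 34263209 to 34269418, plus strand), its partner chain, gave 2624 and 3376 counts in the same WT libraries, against 1307 and 2143 for KO. The log2 fold change of H2-Ab1 was -1.06 (SE 0.32, 95% confidence interval -1.87 to -0.25; edgeR adjusted p = 0.519). The KO mean was therefore 49.4% of the WT mean for H2-Aa, 47.9% for H2-Ab1 and 43.6% for H2-Eb1. In both genotypes the libraries numbered 2 were the higher ones, by 0.26 to 0.39 on the log2 scale in WT and by 0.55 to 0.63 in KO, so KO 2 came nearest to the WT range for all 3 chains.

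The peptide-exchange subunits were lower in level and had the same order of libraries by genotype. H2-DMa (ENSMUSG00000037649, chromosome 17, 34135182 to 34139101, plus strand) gave 427 counts in WT 1, 356 in WT 2, 224 in KO 1 and 258 in KO 2, or 24.3 ± 2.82 CPM for WT against 12.6 ± 0.768 CPM for KO. Its estimate was -0.95 on the log2 scale (SE 0.23, 95% confidence interval -1.54 to -0.37; edgeR unadjusted p = 0.008 and adjusted p = 0.362). H2-DMb1 (ENSMUSG00000079547, chromosome 17, 34153072 to 34160230, plus strand) gave 895 and 994 counts for WT, against 656 and 790 for KO. The groups of H2-DMb1 did not overlap either, but the estimate was smaller, -0.64 (SE 0.23, 95% confidence interval -1.22 to -0.06; edgeR adjusted p = 0.676), and the log2 ratio was -0.65 and -0.64 within the numbers. Within each library the H2-DMa to H2-DMb1 ratio of FPKM was 0.359 and 0.269 in WT and 0.257 and 0.246 in KO. H2-DMb1 lies beside H2-DMb2, a closely related copy, so counts could be split between them, although H2-DMb2 had only 17 to 37 counts.

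Cd74 (ENSMUSG00000024610, chromosome 18, 60803848 to 60812646, plus strand), the invariant chain, was counted 3147 times in WT 1, 4258 in WT 2, 2422 in KO 1 and 3200 in KO 2. In CPM both KO libraries, at 130 and 163, lay under both WT libraries, at 194 and 267. WT averaged 231 ± 51.8 CPM and KO averaged 146 ± 23.1 CPM, and the fitted log2 difference was -0.66 (SE 0.28, 95% confidence interval -1.37 to 0.06; edgeR adjusted p = 0.800). This interval includes 0. The KO level was 63.4% of WT for Cd74 and 64.1% for H2-DMb1, against 43.6% to 51.6% for the chains and H2-DMa. The Cd74 to H2-Ab1 ratio of FPKM was 1.41 and 1.48 in WT and 2.18 and 1.76 in KO, without overlap, and this ratio was chosen after its values were seen and not tested.

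Summed over the 3 chains, both H2-DM subunits and Cd74, the level reached 735 and 926 CPM for WT but 373 and 510 CPM for KO. KO was at 50.7% of WT among the libraries numbered 1 and at 55.1% among those numbered 2. RNA of a bulk culture cannot tell apart fewer cells that carry class II and less class II RNA in each cell. B cells also express class II genes, and their markers were lower in the KO libraries as well. The summed level of the 10 B cell markers was 23.7 and 25.4 CPM for WT but 12.9 and 12.5 CPM for KO, which is 54.3% and 49.2% of WT within the numbers. All 5 B cell markers that were tested, against 16.9% of all genes, had both KO libraries under both WT libraries, Cd79b for example at 137 and 104 counts for WT against 61 and 70 for KO, and Ms4a1 with 97 and 98 against 57 and 52. The other 5, Pax5, Ebf1, Fcer2a, Cr2 and Vpreb3, were under 1 CPM in every library. The part of B cell RNA in the class II difference was not tested. The summed level of the 11 dendritic cell markers was 311 and 482 CPM for WT against 438 and 509 CPM for KO, and most of it was Itgax, which macrophages express too. Of the 7 that were tested, 2 had both KO libraries under both WT libraries (16.9% of all genes), Batf3 (5.73 and 4.14 CPM against 2.68 and 3.20 CPM) and Ccr7 (2.59 and 4.90 CPM against 1.88 and 2.24 CPM), and Itgax had them above (20% of all genes), while Flt3, Cd209a, Xcr1, Clec9a and Siglech were under 1 CPM in every library. The part of dendritic cell RNA in the class II levels was not tested either. The 10 T and NK cell markers summed to 3.70 and 3.58 CPM for WT against 2.36 and 2.49 CPM for KO. Of these, 9 were under 1 CPM in every library, with Ifng at 0 counts throughout. The 8 stromal cell markers summed to 78.7 and 92.1 CPM for WT against 345 and 323 CPM for KO, and the part of that difference in the class II levels was not tested.

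**Figure D2:**
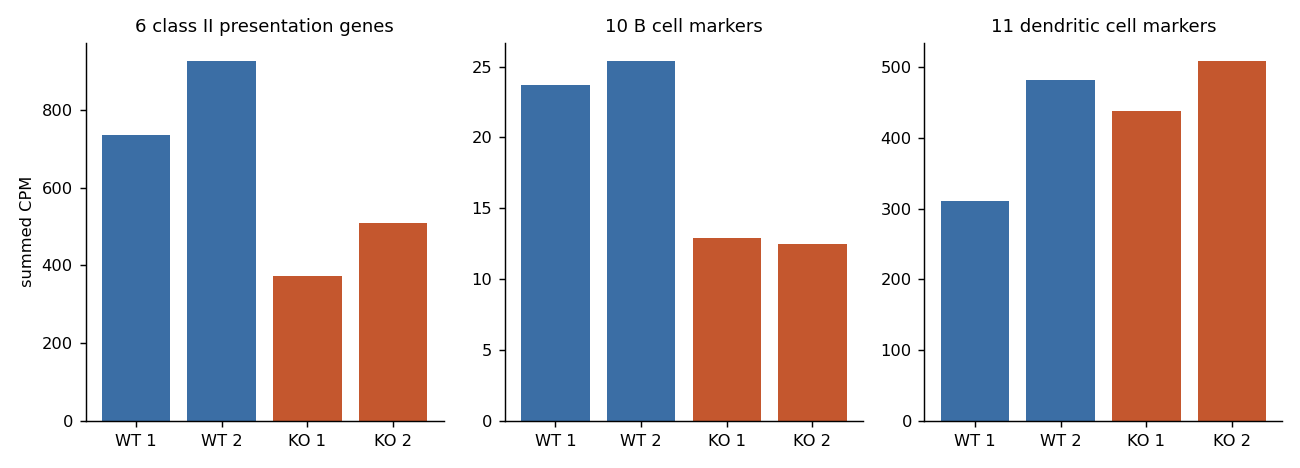
Summed level in CPM (vertical axes, linear and starting at 0) of the 6 class II presentation genes and of marker lists of other cell types in each of the 4 libraries. The 6 genes stood at 735 and 926 CPM for WT against 373 and 510 CPM for KO, and the B cell markers at 23.7 and 25.4 against 12.9 and 12.5 CPM.

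Ciita (ENSMUSG00000022504, chromosome 16, 10488178 to 10527564, plus strand) was barely counted, with 26 in WT 1, 78 in WT 2, 16 in KO 1 and 68 in KO 2. Here the groups overlapped, and the replicate number was the larger difference, with the library numbered 2 at 3.02 times the level of number 1 in WT and 3.93 times in KO. Within each number KO lay below WT, by log2 ratios of -0.88 and -0.50, but the fitted value was above 0 without WT 2 (0.40) or KO 1 (0.089). Its fitted log2 fold change, -0.59, came with a wide 95% confidence interval of -2.68 to 1.51 (edgeR adjusted p = 0.965). Ciita and the chain genes did not follow the same libraries, as on the log2 scale WT 2 and KO 2 were nearest to each other for Ciita, while WT 1 and WT 2 were for the chains. The H2-Ab1 to Ciita ratio of FPKM was 225 and 182 in WT 1 and KO 1 and 96.6 and 70.3 in WT 2 and KO 2. Ciita overlaps Dexi on the opposite strand (93 to 129 counts), and since it is not stated that counting used strand, some counts of each may belong to the other.

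The CD28 ligands did not follow the class II chains. Cd80 (ENSMUSG00000075122, chromosome 16, 38458933 to 38486933, plus strand) gave 154 and 266 counts for WT against 190 and 364 for KO, and Cd86 (ENSMUSG00000022901, chromosome 16, 36603869 to 36666081, minus strand) gave 235 and 282 against 306 and 379. In CPM the groups of both genes overlapped. The log2 fold change was 0.13 for Cd80 (SE 0.43, 95% confidence interval -0.96 to 1.22; edgeR adjusted p = 0.986) and 0.15 for Cd86 (SE 0.25, 95% confidence interval -0.48 to 0.77; edgeR adjusted p = 0.971). The intervals are wide enough to hold a change of the size estimated for H2-DMb1 in the upward direction, and that of Cd80 also in the downward one. Cd80 was 1.76-fold higher in number 2 than in number 1 in WT and 1.81-fold in KO, so its ratio to Cd86 in FPKM was 1.80 and 1.70 in the libraries numbered 1 and 2.59 and 2.64 in those numbered 2.

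Cd40 (ENSMUSG00000017652, chromosome 2, 165055627 to 165072948, plus strand), a receptor that NF-κB and interferon signals are known to induce, had 32 counts in WT 1, 2038 in WT 2, 44 in KO 1 and 1511 in KO 2. It was close to silent in both libraries numbered 1 and well expressed in both numbered 2, a difference of 63.9-fold in WT and 32.2-fold in KO. The genotypes overlapped fully, as the log2 ratio was 0.25 for number 1 and -0.74 for number 2, with a fitted log2 fold change of -0.71 whose 95% confidence interval ran from -5.73 to 4.30 (edgeR adjusted p = 0.982). A rise of at least 32-fold from number 1 to number 2 in both genotypes was found in 24 of the genes tested (0.193%), Cd40 among them. The limit was set with the values of Cd40 known, so the share is a description. At least 2-fold was reached in both genotypes by 542 genes (4.36%), among them Cd40 and Ciita and none of the other 8 genes.

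**Figure D3:**
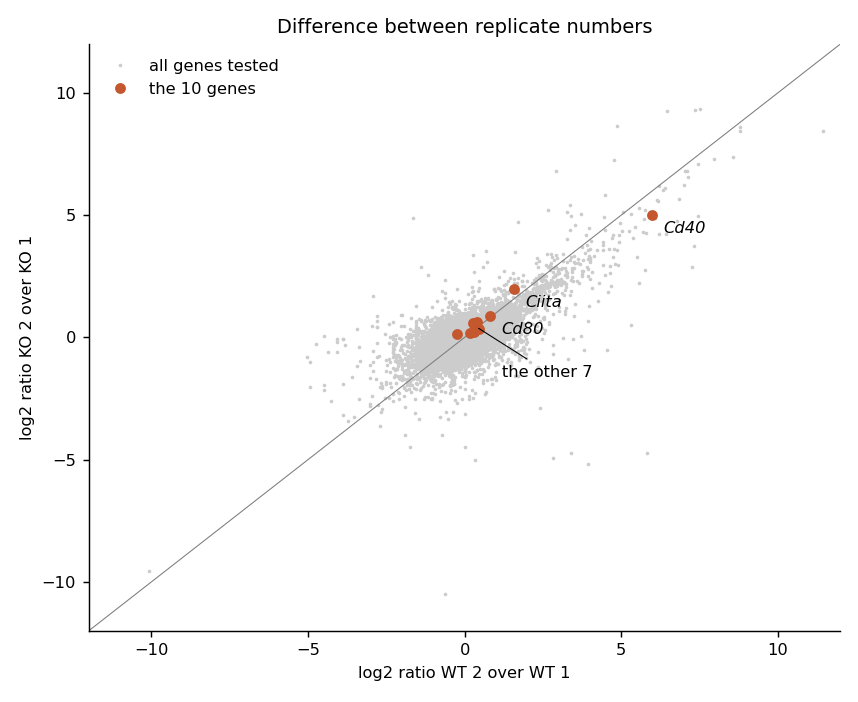
Log2 ratio of the library numbered 2 over the library numbered 1, in WT (horizontal axis) and in KO (vertical axis), for every gene tested (grey) and the 10 genes (coloured), with the line of equality. Cd40 lies far along the line at 6.0 in WT and 5.01 in KO, and Ciita at 1.59 and 1.98, while the class II chains, the H2-DM subunits, Cd74 and Cd86 stay between -0.24 and 0.63.

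Against the background of all genes, the edgeR quasi-likelihood test called 0 genes (0.0%) at an adjusted p under 0.05 with a fold change above 2, and 0 of the 10. At an unadjusted p under 0.05, 823 genes passed (6.63%), of which 247 were lower in KO (1.99%). Of the 10 genes, 5 passed, the 3 chains, H2-DMa and H2-DMb1, all lower in KO. Among the 10 this count was 5 without WT 1, 3 without WT 2, 0 without KO 1 and 4 without KO 2, where 5.36%, 10.6%, 3.0% and 4.53% of all genes tested had such a p. The edgeR exact test called 229 genes (1.84%) and 0 of the 10, and the DESeq2 Wald test called 181 genes (1.46%) and 1 of the 10, H2-Eb1 (adjusted p = 0.0331, where the alternatives ranged from 7.39e-06 to 1.00). These tests had genotype as their only term, so the difference between the replicate numbers counted as spread in them. With a replicate block the quasi-likelihood test called 664 genes (5.35%) and 3 of the 10, the chains. The labels do not say that a number pairs libraries. Non-overlapping groups with KO below were found for 6 of the 10 and for 2098 of all genes (16.9%), and with KO above for 0 of the 10 and 2480 of all genes (20%). A log2 ratio of -0.5 or lower within both numbers was found for 7 of the 10, the 6 presentation genes and Ciita, and for 414 of all genes (3.33%). Ciita stood at this limit, at -0.501 for number 2. The 10 genes and the tests were chosen with earlier results of these data known, so these shares are descriptions. The median log2 fold change was -0.69 over the 10 genes (interquartile range -1.0 to -0.60) and 0.04 over all genes tested. It was -0.99 over the 6 presentation genes, all of them below 0, and 0.13 over Cd80, Cd86 and Cd40.

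**Figure D4:**
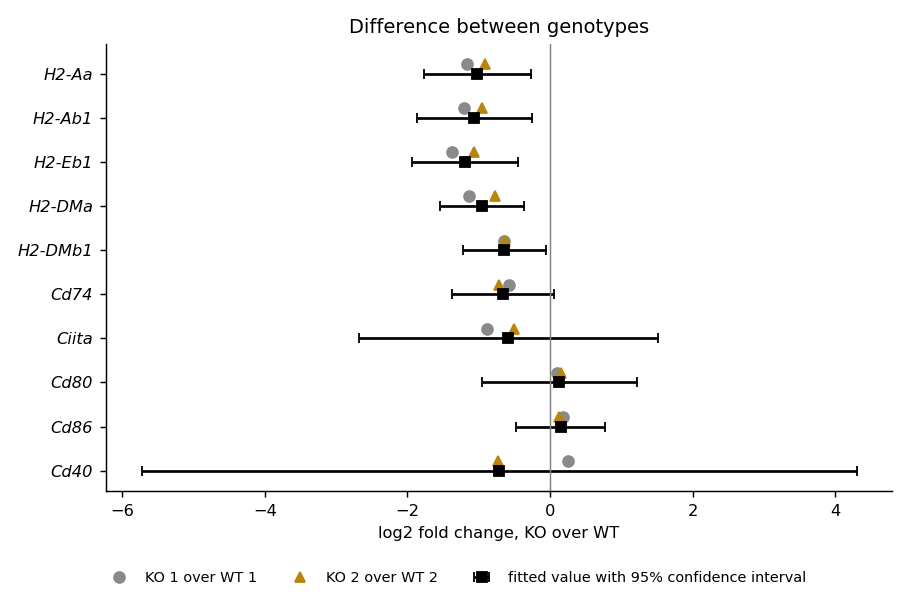
Log2 fold change, KO over WT (horizontal axis), of the 10 genes: the fitted value with its 95% confidence interval (black) and the ratio within number 1 (grey circle) and number 2 (yellow triangle). The 6 presentation genes lie between -1.20 and -0.64 with both ratios below 0, Cd80 and Cd86 lie near 0, and the interval of Cd40 spans from -5.73 to 4.30.

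The rest of the pathway was read from hand-written lists, and in none of them was a gene called by the edgeR quasi-likelihood test with genotype as its only term. An unadjusted p under 0.05 was reached by 1 gene of class II transcription (lower in KO) and by 3 of the other ligands (1 lower and 2 higher), and by 0 in the 4 remaining lists, where 1.99% of all genes were lower and 4.64% higher at such a p. Overlap between groups was judged in CPM, so raw counts can cross where the CPM do not, and the counts of genes without overlap below stand against 16.9% of all genes with KO below and 20% with KO above. All 4 class II genes outside the 10 had an estimate below 0, with a median of -0.81. H2-Ob had 31 and 41 counts for WT against 21 and 24 for KO, an estimate of -0.93 (SE 0.40, edgeR adjusted p = 0.805), and H2-DMb2 had 37 and 33 against 17 and 35 counts, or -0.69 (SE 0.47, edgeR adjusted p = 0.912). With each library left out in turn, the estimate ranged from -1.25 to -0.29 for H2-DMb2 and from -1.12 to -0.73 for H2-Ob. H2-O chains are known mainly from B cells, and the partner chain H2-Oa overlapped between the groups, at 11 and 15 counts for WT against 4 and 19 for KO.

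Of the 10 genes for class II transcription, which include the RFX and NF-Y subunits that bind the X and Y boxes printed above, 3 had both KO libraries under both WT libraries and 0 had them above, with a median of -0.14. Irf4, a transcription factor of B cells, dendritic cells and alternatively activated macrophages, had 178 and 183 counts for WT against 80 and 54 for KO. Its estimate on the log2 scale was -1.67 (SE 0.34, 95% confidence interval -2.53 to -0.81; edgeR quasi-likelihood adjusted p = 0.289), the only gene of this list under an unadjusted p of 0.05. The DESeq2 Wald test (adjusted p = 0.00756) and the edgeR exact test (adjusted p = 0.0260) called Irf4, and the adjusted p ranged from 2.69e-07 to 1.00 over its alternatives. Rfxap, a subunit of the RFX complex, was at -0.47 (edgeR adjusted p = 0.871), with 381 and 269 counts for WT against 279 and 277 for KO. Its estimate ran from -0.72 to -0.21 when each library was left out.

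The 12 genes of class II loading and turnover had a median of -0.13, with 5 below and 1 above without overlap. Ctss, the cathepsin known to complete the cutting of Cd74, was among the most abundant transcripts with 258463 and 222281 counts for WT against 178688 and 247649 for KO. Its log2 fold change was -0.43 (SE 0.20, edgeR adjusted p = 0.841), and that of Ctsl, a cathepsin with a like role in thymic epithelium, was -0.42 (SE 0.22, edgeR adjusted p = 0.857). As each library was left out, Ctss ran from -0.64 to -0.25 and Ctsl from -0.66 to -0.16. March8, a ubiquitin ligase whose family marks class II molecules for degradation, was on the opposite side at 0.34 (SE 0.26, edgeR adjusted p = 0.933), with 928 and 911 counts for WT against 1559 and 1197 for KO. That estimate was 0.032 with a gene length trend removed and 0.089 without KO 1. In interferon gamma signalling, which is known to induce Ciita, 0 of 10 genes had groups without overlap and the median was -0.12.

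Among 17 other costimulatory and coinhibitory ligands, 14 were tested, with a median of -0.35, and 4 lay below and 2 above without overlap. Cd276 (B7-H3), a relative of Cd80 and Cd86 found on many non-haematopoietic cells too, had 59 and 66 counts for WT against 166 and 181 for KO, an estimate of 1.22 (SE 0.28, 95% confidence interval 0.50 to 1.93; edgeR adjusted p = 0.342). Nectin2 had 85 and 133 against 231 and 247 counts, or 0.88 (SE 0.33, edgeR adjusted p = 0.699). The KO libraries were also the higher ones in the stromal marker sum given above, whose part in the levels of these ligands was not tested. Tnfsf18 and Pdcd1lg2, ligands of GITR and PD-1, had at most 14 counts in any library, with estimates of -1.45 and -1.30 (edgeR adjusted p = 0.676 and 0.850). Leaving out each library gave -1.49 to -1.41 for Tnfsf18 and -2.22 to -0.76 for Pdcd1lg2.

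In CD40 signalling, 0 of 11 genes had groups without overlap and the median by genotype was -0.03, but the median log2 ratio of number 2 over number 1 was 1.41 in WT and 1.36 in KO, against -0.003 and -0.004 over all genes tested. Relb and Nfkb2, which form the noncanonical NF-κB dimer downstream of Cd40, and the adaptor Traf1 were also far higher in both libraries numbered 2. Nfkb2 had 258 and 427 counts in WT 1 and KO 1 and 3236 and 3628 in WT 2 and KO 2. Relb had 145 and 196 against 1204 and 1450 counts, and Traf1 had 87 and 112 against 968 and 1014. The same held for Icam1, an adhesion ligand for T cells, with 276 and 357 against 10879 and 12351 counts, and for Cd83, which is known to oppose March1 and so to stabilise class II and Cd86 on the cell surface, with 1431 and 1516 against 10579 and 11816. These 5 genes were chosen after their values were seen, and what the number stands for is not given, so these differences describe the libraries.

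The genes whose pattern over the 4 libraries came closest to the mean of H2-Aa, H2-Ab1, H2-Eb1 and Cd74 were ranked by Euclidean distance of centred log2 CPM among the 12418 genes. These 4 genes make up the target pattern, so their own closeness to it is built in. H2-Aa ranked 1 and H2-Ab1 ranked 3, while H2-Eb1 was at rank 15, Cd74 at 51, H2-DMb1 at 88 and H2-DMa at 149. Ranks were 5014 for Cd86, 5347 for Cd80, 7853 for Ciita and 12368 for Cd40. The 5 nearest genes outside the 10 were Spry1, Il18bp, Fam133b, Tph1 and Aif1, at distances of 0.074 to 0.204. Il18bp, the secreted antagonist of interleukin 18, had 156 and 191 counts for WT against 79 and 114 for KO, and Aif1, an actin-binding protein of macrophages, had 92 and 108 against 55 and 70. Spry1 and Tph1 had only 9 to 24 counts, and likeness over 4 libraries describes their order and little more.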

How the data were processed

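Total RNA of mouse macrophages was sequenced in 4 libraries (2 WT, 2 KO). Per the study's methods, the authors filtered reads with Seqtk, aligned them with HISAT2 2.0.4 and counted fragments per gene with StringTie 1.3.3b. The deposited counts are raw whole numbers, with the authors' FPKM beside them, which was used only to compare levels between genes. The submitters' processing notes name mm39, but 34246 of the 34267 gene IDs found in GENCODE M21 overlap their GRCm38 locus, so positions are given on GRCm38. No column of the table was left without a sample, and no library was a copy of another (chi-square over degrees of freedom between pairs, 23.2 to 127).

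Counts were filtered with filterByExpr (minimum count 10, minimum total 15), scaled by TMM (factors 0.942 to 1.12) and tested with the edgeR 4.0.16 quasi-likelihood test in R 4.3.3, two-sided, with genotype as the only term and Benjamini-Hochberg adjustment over 12418 genes. Calls required an adjusted p under 0.05 with a log2 fold change beyond 1 in either direction, as in the study's methods. CPM are on TMM-scaled totals of the tested genes. Log2 ratios within a number had 0.5 counts added. The 10 genes, the lists and the tests were chosen with earlier results of these data known. Named from each list were the 2 genes with the largest change in each direction among those whose groups did not overlap, and the 5 genes nearest in pattern. Of the list genes, 4 were matched by ID because the table gives an older or altered symbol (March1, March8, Vsir, Nectin2). Alternatives were DESeq2 1.42.0 size factors and Wald test, no filter, the edgeR exact test, no minimum fold change, a replicate block, removal of a gene length trend (loess, span 0.5) and each library left out. The code was tested on simulated data. Where these data held a difference between the replicate numbers, genotype as the only term recovered 0 of 200 genes set 4-fold apart. The replicate block recovered 192 of them there, with 5 false calls. Where the replicate numbers did not differ, the fits recovered 190 without the block and 193 with it. Confidence intervals come from the quasi-likelihood fit and include the spread between libraries. Limits on counts of 0 cover counting error only, since reads carried no molecular identifiers.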

Additional observations from a re-analysis of the deposited data

How the results depend on the processing

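The number of genes called rose from 0 to 181 with the DESeq2 Wald test, 229 with the edgeR exact test, 664 with a replicate block and 390 with a replicate block and the gene length trend removed. Of the 10 genes, 1 was called with the Wald test, 3 with the replicate block and 1 with the block and the length trend removed, all lower in KO, whereas most genes called were higher in KO (136 of 181, 193 of 229, 494 of 664 and 283 of 390). With the block, 1.37% of all genes were called lower. In the last of these fits H2-Aa (log2 fold change -0.998, adjusted p = 0.00803) and H2-Eb1 (-0.92, adjusted p = 0.0115) kept an adjusted p under 0.05 and missed only the minimum fold (edgeR quasi-likelihood test). The labels do not say that a replicate number pairs libraries, and there are only 2 pairs, although libraries of the same number deviated from the genotype means together across genes (correlation 0.692). With the block, the genes called were H2-Eb1 (adjusted p = 7.39e-06), H2-Ab1 (adjusted p = 1.12e-04) and H2-Aa (adjusted p = 2.57e-04, edgeR quasi-likelihood test in each case). Of the pathway lists, the block called Irf4 (adjusted p = 2.69e-07, lower in KO) and Cd276 (adjusted p = 8.04e-04, higher in KO), and of the markers 2 of the 5 tested B cell genes (lower) and 6 of the 8 stromal genes (higher). H2-DMa had an adjusted p of 0.00221 at a log2 fold change of -0.95, under the minimum fold. The median log2 fold change of the 10 genes ran from -1.17 to -0.51 when each library was left out (-1.17 without KO replicate 2, -1.01 without WT replicate 1). A lone library left in a genotype was assumed to vary like the other genotype.

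The 3 chains, H2-DMa, H2-DMb1, Cd74 and Cd86 kept their direction in all 12 alternatives. The log2 fold change of Cd80 ranged from -0.36 to 0.56 as each library was left out, and was below 0 without WT replicate 1 (-0.22) or KO replicate 2 (-0.36). That of Ciita ranged from -1.91 to 0.40 and was above 0 when WT replicate 2 (0.40) or KO replicate 1 (0.089) was removed. That of Cd40 ranged from -4.78 to 4.29, above 0 under the same omissions (4.29 and 0.24). The cause was not tested. In these fits the libraries left are unequally divided between the replicate numbers. Of 324 values of the 27 named genes under the alternatives, 318 kept their direction, and the 6 that turned are those given here. Depth was ample for the class II chains and limited Ciita, H2-Ob, H2-DMb2, Tnfsf18, Pdcd1lg2, Spry1 and Tph1, which had at most 78 counts in any library.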
